A study of Homo sapiens with 6 samples.

Results

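Aminoacyl-tRNA synthetases are the enzymes that load each transfer RNA with its amino acid. Most animal cells carry one set of them in the cytosol, where a part of the set is bound together with scaffold proteins in the multisynthetase complex, and a second, nuclear-encoded set in the mitochondria. Loaded tRNA feeds the ribosome, while unloaded tRNA activates the kinase GCN2, which phosphorylates eIF2 alpha, slows translation and raises the transcription factor ATF4, and ATF4 in turn drives amino acid transporters, amino acid synthesis and several cytosolic synthetases. The genes described here were 35 listed synthetases. The family was picked with earlier results of these data known, while its members were taken by symbol alone, as every probe set whose platform annotation gave a single gene symbol from that list. By this rule 32 genes were measured by 67 probe sets, out of 19775 genes and 54613 probe sets in all. Of these, 17 genes (34 probe sets) code for cytosolic enzymes and 15 genes (33 probe sets), whose symbols end in 2, for mitochondrial ones. GARS1 and KARS1, counted as cytosolic, supply both compartments from one gene. MARS1, QARS1 and TARS2 lay on 5 probe sets that are annotated with a microRNA gene as well and were not analysed here.

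The cells were K562, a human erythroleukemia line derived from chronic myeloid leukemia. In 3 stably transfected clones of it (CL4, CL9 and CL46), a doxycycline-driven promoter controls the ETS family transcription factor ERG (pTRE-ERG). Each clone was grown with 1 µg/ml doxycycline daily for 8 days (ERG-induced) or without it (non-induced), and 1 expression array was made of each, so that both groups hold 3 arrays and no clone has a replicate of its own. Each line is a single clone that shares the construct in both groups, and no culture without the ERG construct received doxycycline, so that the effects of ERG and of doxycycline cannot be told apart. The comparison addresses which transcripts differ between cultures with and without doxycycline, the agent meant to switch ERG on.

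In most probe sets the deposited value is a ratio to the set's own median over the 6 arrays. It is given below on the log2 scale as a level relative to that median, averaged over the probe sets of a gene. Such a ratio holds no brightness, so that levels of different genes were not compared and neither the K562 identity nor the presence of other cell types could be checked from marker levels. ERG itself, read by 4 probe sets, stood at 1.5, -0.13 and -0.57 in CL4, CL9 and CL46 without doxycycline and at 0.15, -0.93 and -0.71 with it, a difference of -0.76 (SE 0.63, adjusted p = 0.671), so that ERG did not bear out the labels and the arrays are called labelled ERG-induced. Its 4 probe sets disagreed, at -1.93 (SE 1.34), -1.35 (SE 0.93), -0.50 (SE 0.34) and 0.72 (SE 1.48). Only in the set at -1.93 did the clones share a sign, so that ERG had no coherent reading. The sources used here do not say whether these probe sets lie within the ERG sequence of the construct, so that the reading may not bear on the transgene. The median ratio of an array was 0.99 to 1.07 in the non-induced and 0.898 to 0.999 in the labelled ERG-induced arrays. The 18S rRNA control was higher in the labelled ERG-induced array of every clone, by 0.59 to 1.21 on the log2 scale, while the 3′ minus 5′ differences of ACTB and GAPDH shifted by 0.22 (SD 0.37) and 0.02 (SD 0.04). The part of these shifts in the results was not tested. A gene was called where the groups differed at least 2-fold with an unadjusted limma p under 0.05, and p-values adjusted over all genes (Benjamini-Hochberg) are given beside it.

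Among the 32 synthetases, EPRS1 was the one called lower in the labelled ERG-induced arrays and 0 were called higher. Over all genes 6.32% were called lower and 3.12% higher. Such shares of 32 genes are few calls, so that 1 and 0 calls do not set the synthetases apart from all genes. The adjusted p passed 0.05 for 0 of the 32 synthetases and for 0 of all 19775 genes, whereas an unadjusted limma p under 0.05 was reached by EPRS1 and NARS1 and by 2544 genes. The lowest adjusted p of a synthetase was 0.301. The 32 differences ran from -1.54 (EPRS1) to 0.52 (MARS2) with a median of -0.14, against -0.03 over all genes, and 22 of them lay within 0.5 of 0. Of the 32 genes, 19 were below and 13 above 0, and 10 were lower and 4 higher in all 3 clones. The standard errors of the synthetases ran from 0.22 to 0.57, and their median of 0.27 was smaller than that of 0.45 over all genes.

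**Figure D1:**
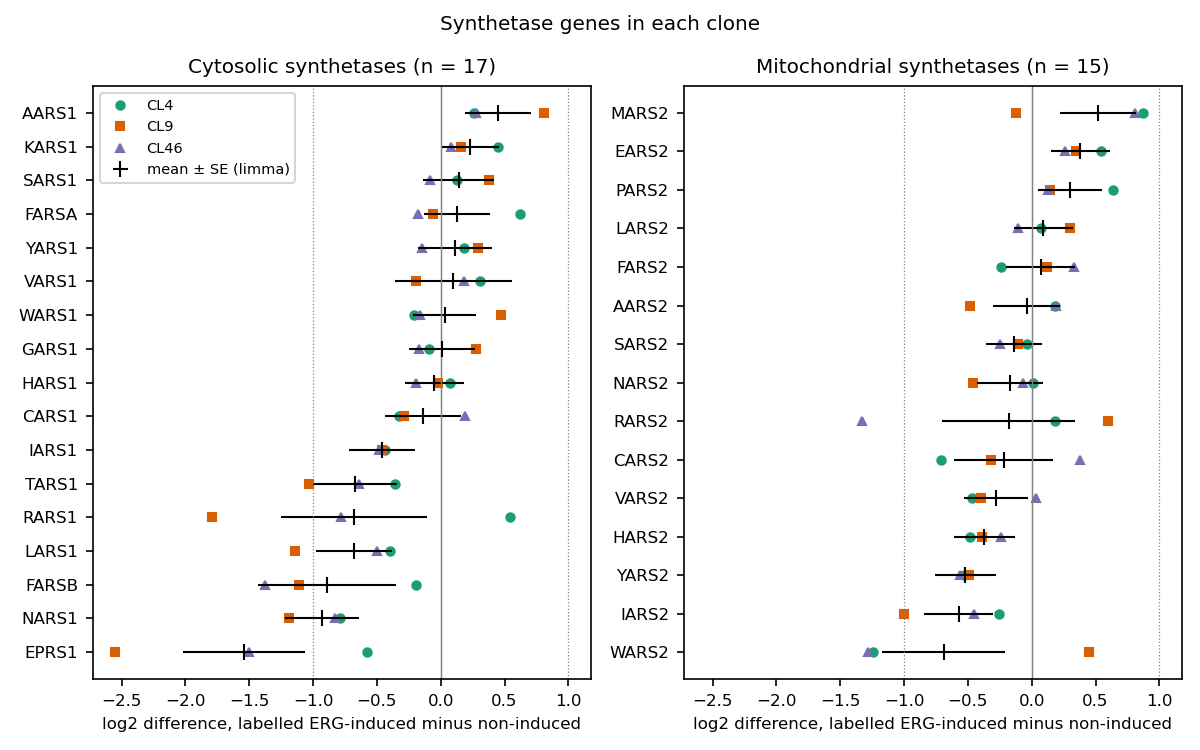
Log2 difference, labelled ERG-induced minus non-induced, of the 17 cytosolic (left) and 15 mitochondrial (right) synthetase genes. Symbols are the 3 clones, black ticks with bars the mean ± SE from limma, and dotted lines a 2-fold difference; EPRS1, at -1.54, is the one mean that lies past it, and the clones of RARS1, WARS2 and RARS2 fall on both sides of 0.

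EPRS1 codes for the bifunctional enzyme that loads glutamate and proline and is a member of the multisynthetase complex. Its level was 0.31, 0.50 and 0.28 in the non-induced arrays of CL4, CL9 and CL46 and -0.27, -2.05 and -1.22 in the labelled ERG-induced ones. All 3 labelled ERG-induced arrays lay below all 3 non-induced ones, CL9 farthest and CL4 least. The mean difference was -1.54 (SE 0.48, 95% interval -2.72 to -0.36, adjusted p = 0.301), or 2.91-fold lower. Its 3 probe sets lay on the same side, at -1.35 (SE 0.36), -1.45 (SE 0.40) and -1.82 (SE 0.79), and the first 2 of them were called. The third read 0.03 without and -0.03 with doxycycline in CL4, but 0.75 and -3.02 in CL9. All 3 probe sets carry the _s_at suffix of sets that may match more than 1 transcript, so that EPRS1 had no value once such sets were left out. The call was lost without CL9 (-1.04, adjusted p = 0.599) and without CL46 (-1.56, adjusted p = 0.642), and without CL4 the difference was -2.02.

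The 250 bases before the start of EPRS1, taken from RefSeq (GRCh38.p14, chr1:220046506-220046755, minus strand), are shown because this gene differed most. They hold neither of the 2 motifs that were searched in the synthetase promoters.
EPRS1: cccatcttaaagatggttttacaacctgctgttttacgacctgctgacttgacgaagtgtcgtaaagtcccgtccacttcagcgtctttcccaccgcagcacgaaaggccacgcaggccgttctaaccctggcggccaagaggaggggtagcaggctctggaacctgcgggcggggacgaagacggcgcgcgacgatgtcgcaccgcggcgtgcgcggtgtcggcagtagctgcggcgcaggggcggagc

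NARS1, the cytosolic asparagine enzyme, came closest to a call without passing it. It read 0.47, 0.23 and 0.55 in the non-induced arrays of CL4, CL9 and CL46 against -0.32, -0.96 and -0.27 in the labelled ERG-induced ones. The groups did not overlap, and every clone was lower, with differences of -0.79, -1.19 and -0.83. Its mean was -0.93 (SE 0.29, 95% interval -1.66 to -0.21, adjusted p = 0.304), 1.91-fold lower and thus just short of the 2-fold threshold. FARSB, the beta chain of the cytosolic phenylalanine enzyme, was at 0.18, 0.26 and -0.53 without and at -0.01, -0.85 and -1.91 with doxycycline. Every clone was lower, but the non-induced CL46 array lay below the labelled ERG-induced CL4 array, so that the groups overlapped. The difference of -0.89 (SE 0.54, adjusted p = 0.559) did not pass. FARSA, the alpha chain of the same enzyme, differed by 0.13 (SE 0.26, adjusted p = 0.885).

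Of the 7 synthetases listed for the multisynthetase complex 5 were measured, namely EPRS1, IARS1, KARS1, LARS1 and RARS1. Their median difference was -0.68, against 0.02 for the 12 other cytosolic genes, with 4 of 5 and 5 of 12 below 0, and 1 and 0 called. By clone (CL4, CL9, CL46) the complex median ran -0.40, -1.14 and -0.50. Whether both groups differ was not tested. EPRS1, IARS1 and LARS1 were read by sets of the suffixes _s_at or _x_at alone. With such sets left out, KARS1 (0.28) and RARS1 (-0.68) were the complex members that remained. LARS1, the leucine enzyme that also reports leucine to the kinase mTORC1, read 0.17, 0.21 and 0.33 without and -0.23, -0.93 and -0.17 with doxycycline in CL4, CL9 and CL46. The groups did not overlap, and CL9 was again the lowest. The difference was -0.68 (SE 0.30, adjusted p = 0.42), and 3 of the 4 LARS1 probe sets lay between -0.74 and -0.87 while the fourth was at -0.25 (SE 0.33).

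RARS1, the arginine enzyme, had the same mean of -0.68 with a much wider error (SE 0.57, adjusted p = 0.68). Its level went from -0.46 to 0.08 in CL4, from 0.15 to -1.63 in CL9 and from 0.70 to -0.08 in CL46. The clones thus disagreed in direction. IARS1, the isoleucine enzyme, read 0.03, 0.10 and 0.46 against -0.41, -0.36 and -0.03, a shift of -0.44, -0.46 and -0.48 by clone. The groups did not overlap and the clones were almost equal, yet the difference of -0.46 (SE 0.26, adjusted p = 0.529) did not pass. KARS1, the lysine enzyme, was the one measured member of the complex above 0, by 0.45, 0.16 and 0.08 in the 3 clones and 0.23 on average (SE 0.23, adjusted p = 0.736). Of the scaffold proteins AIMP1, AIMP2 and EEF1E1, AIMP1 alone had probe sets that could be named, and 0 were called. It read 0.22, 0.04 and 0.51 without and -0.05, -1.48 and -0.49 with doxycycline, lower in all clones without overlap, at -0.93 (SE 0.43, adjusted p = 0.436).

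**Figure D2:**
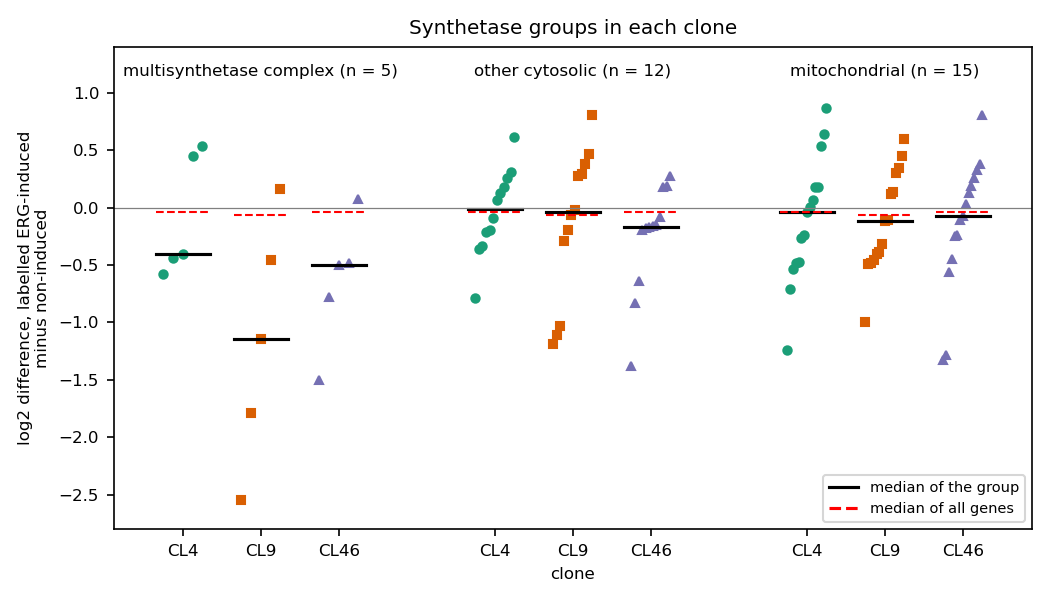
Log2 difference, labelled ERG-induced minus non-induced, of each synthetase gene (points) in CL4, CL9 and CL46, for the 5 measured members of the multisynthetase complex, the 12 other cytosolic genes and the 15 mitochondrial genes. Black bars are group medians and red dashes the median of all genes; the complex medians of -0.40, -1.14 and -0.50 lie below the dashes in every clone.

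The other cytosolic genes lay on both sides of 0. TARS1, the threonine enzyme, read 0.12, 0.06 and 0.52 without and -0.24, -0.96 and -0.12 with doxycycline. Its groups did not overlap, and both of its probe sets were lower, at -0.77 and -0.58. The mean of -0.67 (SE 0.33, adjusted p = 0.461) did not pass. AARS1, the alanine enzyme and a known ATF4 target, was the highest cytosolic gene. It stood at -0.23, -0.58 and -0.04 without and at 0.03, 0.23 and 0.24 with doxycycline, each labelled ERG-induced array above each non-induced one. The difference, 0.45 (SE 0.26, 95% interval -0.19 to 1.09, adjusted p = 0.533), did not pass and was widest in CL9.

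SARS1, the serine enzyme, differed by 0.14 (SE 0.28, adjusted p = 0.878). GARS1, which loads glycine in both compartments, differed by 0.01 (SE 0.26, 95% interval -0.63 to 0.65). WARS1, the tryptophan enzyme that interferon gamma induces, differed by 0.03 (SE 0.25, 95% interval -0.59 to 0.65), higher in CL9 and lower in the other clones. These intervals still hold differences of more than 1.5-fold in either direction. CARS1, HARS1, VARS1 and YARS1, the cysteine, histidine, valine and tyrosine enzymes, ranged from -0.14 to 0.11, and the clones of each disagreed in sign. Leaving out GARS1 and KARS1, whose enzymes serve both compartments, moved the cytosolic median from -0.05 to -0.14 over 15 genes.

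Among the 15 mitochondrial genes 0 were called, 10 were below and 5 above 0, and the median was -0.17 (lowest adjusted p 0.43). An unadjusted limma p under 0.05 was reached by 0 of them. WARS2, the tryptophan enzyme of the mitochondria, had the lowest mean. It read 1.04, -0.59 and 0.82 without and -0.20, -0.14 and -0.46 with doxycycline, lower in CL4 and CL46 and higher in CL9. The mean of -0.69 (SE 0.48, adjusted p = 0.613) rested on 1 of its 3 probe sets, at -1.68 (SE 1.52), while the others were at -0.40 and 0.02. Without CL9 the gene met the call thresholds at -1.26 (adjusted p = 0.472).

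IARS2, YARS2 and HARS2, the mitochondrial isoleucine, tyrosine and histidine enzymes, were each lower in all clones without overlap of the groups. IARS2 went from 0.23, 0.34 and 0.03 to -0.03, -0.66 and -0.42 across the clones, a mean of -0.57 (SE 0.27, adjusted p = 0.452). YARS2 went from 0.30, 0.12 and 0.43 to -0.23, -0.37 and -0.13, a mean of -0.52 (SE 0.24, adjusted p = 0.43). Its shifts of -0.53, -0.49 and -0.56 were nearly the same in the 3 clones. HARS2 went from 0.04, 0.03 and 0.21 to -0.44, -0.36 and -0.03, a mean of -0.37 (SE 0.24, adjusted p = 0.594). Each of these 3 genes rests on a single probe set.

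At the other end, EARS2 and PARS2, the mitochondrial glutamate and proline enzymes, were higher in all clones without overlap. EARS2 went from -0.44, -0.17 and -0.13 to 0.09, 0.18 and 0.14, a mean difference of 0.38 (SE 0.23, adjusted p = 0.555). PARS2 was at -0.50, -0.04 and -0.09 without and 0.14, 0.10 and 0.04 with doxycycline, a mean of 0.30 (SE 0.25, adjusted p = 0.668) that came mostly from CL4. These are the mitochondrial partners of the 2 activities that EPRS1 joins in the cytosol. MARS2, the mitochondrial methionine enzyme, had the highest mean of all, 0.52 (SE 0.30, adjusted p = 0.526), from -0.60, 0.06 and -0.63 without and 0.27, -0.06 and 0.18 with doxycycline. It was higher in CL4 and CL46 and not in CL9, so that the groups overlapped. LARS2, the leucine enzyme, differed by 0.09 (SE 0.23, adjusted p = 0.914), and AARS2, CARS2, FARS2, NARS2, RARS2, SARS2 and VARS2 ranged from -0.28 to 0.07.

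Counted over both compartments, the groups did not overlap in 11 genes. These were lower in 8 (EPRS1, NARS1, LARS1, TARS1, IARS2, YARS2, IARS1 and HARS2) and higher in 3 (AARS1, EARS2 and PARS2). Over all genes, 13.6% were lower and 7.98% higher without overlap, so that the lower share of the synthetases, 8 of 32, was above the background and the higher share, 3 of 32, near it. The median SE was 0.27 for the synthetases and 0.45 for all genes. A smaller spread lets groups part at a smaller shift, so that these shares are not strictly alike. With probe sets of the suffixes _x_at and _s_at left out, 5 of 27 synthetases were lower in this way against 13.7% of genes. EPRS1, LARS1 and IARS1 then had no probe set left, and the other lower genes stayed. In the count over all probe sets CL9 was the lowest labelled ERG-induced array in 6 of the 8 lower genes. It was IARS1 and HARS2 in which CL4 lay lowest. Over all genes, too, the labelled ERG-induced CL9 array had the lowest median level, -0.16 against -0.07 in CL4 and 0.00 in CL46. The part of this array-wide level in the order of the clones was not tested.

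**Figure D3:**
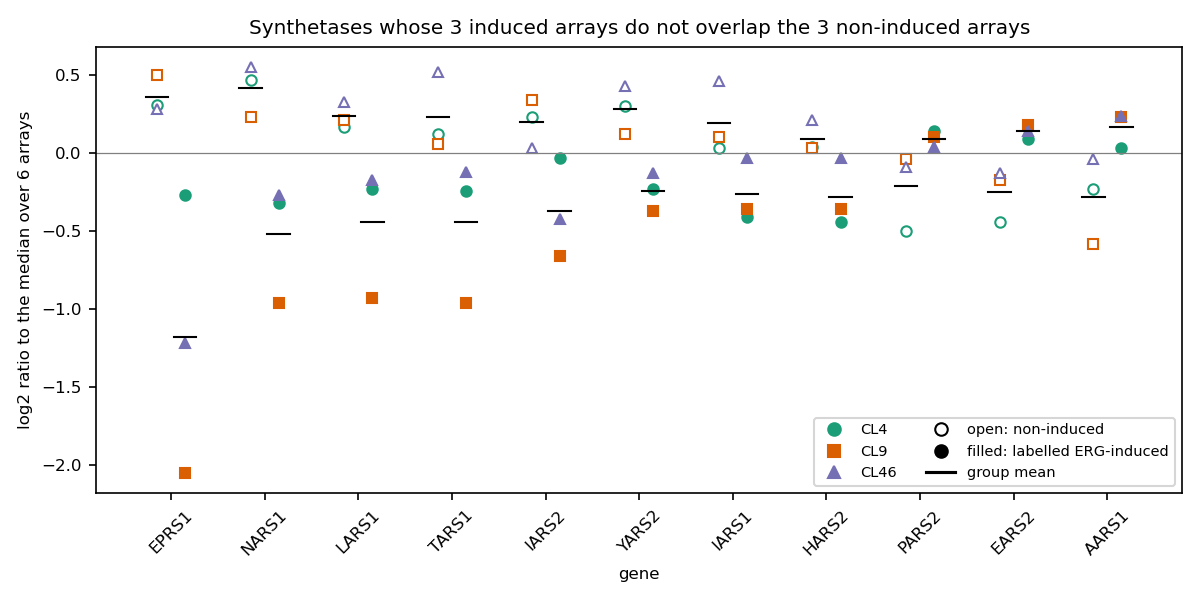
Log2 ratio to the median over the 6 arrays for the 11 synthetases whose groups did not overlap, with 1 point for each array. Open symbols are non-induced and filled symbols labelled ERG-induced arrays, bars are group means, and the widest gap is that of EPRS1, from a mean of 0.36 to -1.18.

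For 12 amino acids both a cytosolic and a mitochondrial gene were measured, which gave 13 pairs, since the phenylalanine enzyme has 2 cytosolic chains. The cytosolic gene had the lower difference in 4 pairs, those of FARSB, LARS1, NARS1 and RARS1, and the mitochondrial gene in 9. The widest gaps were FARSB with -0.89 against FARS2 with 0.07, and LARS1 with -0.68 against LARS2 with 0.09. In the other direction WARS1 with 0.03 stood against WARS2 with -0.69. Both isoleucine genes were lower, IARS1 at -0.46 and IARS2 at -0.57. Differences within pairs were not tested. By catalytic fold, class I genes had a median of -0.20 (10 of 16 below 0, 0 called, 0 with an unadjusted limma p under 0.05) and class II genes one of -0.04 (8 of 15 below 0, 0 called, 1 with such a p, NARS1). EPRS1 holds both folds and was counted in neither.

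On single probe sets, 3 of the 67 were called lower and 1 higher, against 8.16% and 2.82% of all probe sets. The lower ones were those of EPRS1 named above and 1 of FARSB at -1.56 (SE 0.48, adjusted p = 0.277), whose other sets stood at -0.57 (SE 1.27) and -0.55 (SE 0.37). All 3 carry the suffix _s_at or _x_at, that of FARSB being _x_at. The one called higher belonged to CARS2, the mitochondrial cysteine enzyme, at 1.57 (SE 0.57, adjusted p = 0.336). The other CARS2 sets read -1.59, -1.77, 0.26 and 0.43, so that the 5 sets disagreed and the gene mean was -0.22 (SE 0.39). Sets with a standard error above 1 were 6 of the 67, or 8.96%, against 27.2% of all. They belonged to FARSB, CARS2, RARS2 and WARS2, and 1 set of RARS2, the arginine enzyme, differed by 3.39, 1.08 and -5.05 in the 3 clones. The other 5 RARS2 sets had means between -0.55 and -0.01.

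**Figure D4:**
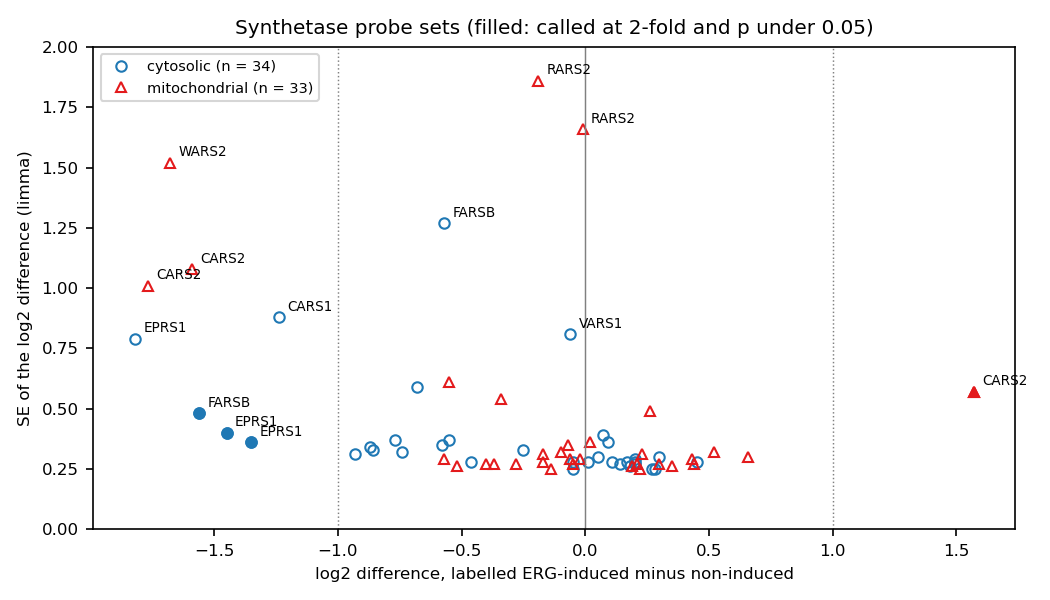
Log2 difference, labelled ERG-induced minus non-induced, of each of the 67 synthetase probe sets against its SE from limma. Circles are cytosolic and triangles mitochondrial genes, filled symbols are called sets, and dotted lines mark a 2-fold difference; most sets lie within 0.5 of 0 with an SE near the median of 0.30, and the sets of CARS2 fall on both sides.

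ERG binds DNA through the ETS motif, and ATF4 through the amino acid response element, so that the 250 bases before each start were searched for the letters CCGGAAGT and TGATGNAA on both strands. RefSeq promoters (GRCh38.p14) were found for 27 of the 32 genes, and none for AARS2, LARS1, VARS1, VARS2 and YARS1 in the table used. A gene counted where any of its listed starts held the motif. The ETS letters occurred in 8 of 27 synthetases, or 29.6% (CARS1, EARS2, HARS1, HARS2, NARS1, PARS2, TARS1 and WARS1), against 5.88% of 15384 genes on the arrays and 3.42% of all 35116 promoters. The 8 genes had a median difference of -0.09, from -0.93 (NARS1) to 0.38 (EARS2), and the other 19 one of -0.17. The response element occurred in 4 of 27, or 14.8% (AARS1, GARS1, IARS1 and YARS2), against 3.19% of array genes and 3.14% of all promoters. The 4 genes ranged from -0.52 to 0.45 with a median of -0.22, and the other 23 had one of -0.14. No synthetase promoter held both motifs. A match of letters is a description and shows no binding.

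The sequences below are the genes with a motif that differed most in either direction, and the stretch that 2 genes share. Capitals mark the motif, on either strand. NARS1 (chr18:57621837-57622086, minus strand) holds the ETS letters beginning 107 bases before the start, and AARS1 (chr16:70289507-70289756, minus strand) the response element 187 bases before it. HARS1 and HARS2 are read in opposite directions from the 84 bases between their starts (chr5:140691371-140691454, shown on the minus strand, that of HARS1), which hold the ETS letters at both ends. HARS1 differed by -0.05 (SE 0.23) and HARS2 by -0.37 (SE 0.24), and the difference between them was not tested.
NARS1: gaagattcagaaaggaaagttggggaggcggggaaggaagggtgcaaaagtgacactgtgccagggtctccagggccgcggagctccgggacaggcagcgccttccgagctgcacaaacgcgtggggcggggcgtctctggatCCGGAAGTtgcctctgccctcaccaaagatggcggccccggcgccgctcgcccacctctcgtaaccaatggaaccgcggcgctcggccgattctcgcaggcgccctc
AARS1: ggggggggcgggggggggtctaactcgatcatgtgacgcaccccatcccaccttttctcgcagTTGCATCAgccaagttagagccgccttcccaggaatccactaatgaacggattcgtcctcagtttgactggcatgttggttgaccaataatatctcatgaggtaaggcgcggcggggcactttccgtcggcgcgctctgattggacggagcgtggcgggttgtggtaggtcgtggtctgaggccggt
HARS1 and HARS2: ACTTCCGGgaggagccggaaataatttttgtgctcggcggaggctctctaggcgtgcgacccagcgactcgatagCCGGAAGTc

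Genes around tRNA charging were described by list. In tRNA maturation and export 3 of 14 measured genes were called lower and 0 higher, against 6.32% and 3.12% of all genes, with a list median of -0.24 and 10 below 0. The list median was 0.06 in CL4, below 0 in CL9 (-0.23) and lowest in CL46 (-0.55). RPP30, a protein subunit of the RNase P that trims tRNA ends, went from 0.51, 0.32 and 0.69 to -0.99, -0.80 and -1.66 in CL4, CL9 and CL46, a difference of -1.65 (SE 0.32, adjusted p = 0.192). SSB, the La protein that binds the ends of new tRNA, fell by 1.24 (SE 0.34, adjusted p = 0.265), and TRMT10C, a subunit of the mitochondrial RNase P, by 1.20 (SE 0.33, adjusted p = 0.26). All 3 were lower in every clone without overlap of the groups. XPOT, the exporter of tRNA, was among the 11 genes not called.

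Mitochondrial transamidation and formylation, which finish glutaminyl- and formylmethionyl-tRNA, had 0 of 4 genes called and a median of -0.08, and GATC, a transamidase subunit, was its highest at 0.34 (SE 0.22, adjusted p = 0.586). Of 2 measured genes that edit mischarged tRNA, DTD1 differed by 0.09 and DTD2 by -0.05. The translation elongation factors had 0 of 7 called and a median of 0.17. Their lowest was the mitochondrial factor GFM1 at -0.79 (SE 0.36, adjusted p = 0.434), while the cytosolic factors EEF2 and EEF1D stood at 0.30 (SE 0.23) and 0.28 (SE 0.23), higher in every clone without overlap. An unadjusted limma p under 0.05 was reached by 0 genes of these 3 lists.

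Among 15 genes that sense uncharged tRNA or act on eIF2, 0 were called, 1 had an unadjusted limma p under 0.05, and the median was -0.14. That gene was EIF2AK2, the kinase PKR that double-stranded RNA activates, at -0.95 (SE 0.38, adjusted p = 0.386), and EIF2S1, the alpha subunit of eIF2 itself, stood at -0.87 (SE 0.37, adjusted p = 0.402). EIF2AK4, which codes for GCN2, read -1.16, -1.87 and 0.15 without and -0.02, 0.03 and 0.35 with doxycycline. It was higher in every clone, but the groups overlapped through CL46, and the difference of 1.08 (SE 0.54, adjusted p = 0.471) did not pass.

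Of 31 ATF4 related genes outside the synthetases, 1 was called higher and 2 lower, against 3.12% and 6.32% of all genes, and 25 of them lay within 0.5 of 0. The median over the list was 0.10, but the clones went opposite ways. It was 0.41 in CL9 (5 of 31 below 0), -0.18 in CL4 (21 below 0) and -0.13 in CL46 (20 below 0). In CL4, CL9 and CL46 the list's median level was 0.01, -0.47 and 0.28 without doxycycline. With it, the level was -0.16, 0.00 and 0.12. The non-induced CL9 array was thus the lowest, while the labelled ERG-induced CL9 array lay between the other labelled ones. SLC7A11, the cystine transporter, went from 1.53, 0.09 and 1.97 to -0.38, -1.64 and -0.99, a difference of -2.20 (SE 0.60, adjusted p = 0.261), or 4.58-fold lower. SLC38A2, a transporter of neutral amino acids, fell by 1.16 (SE 0.26, adjusted p = 0.212), close to equal in the 3 clones at -1.20, -0.98 and -1.31. JDP2, a transcription factor of the AP-1 family, was higher at the 2-fold threshold, by 1.00 (SE 0.32, adjusted p = 0.305). The called genes of this list thus lay on both sides. Of 7 measured interferon genes known to rise with WARS1, 0 were called, 0 had an unadjusted limma p under 0.05, and the highest was CXCL10 at 1.28 (SE 0.80, adjusted p = 0.568).

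**Figure D5:**
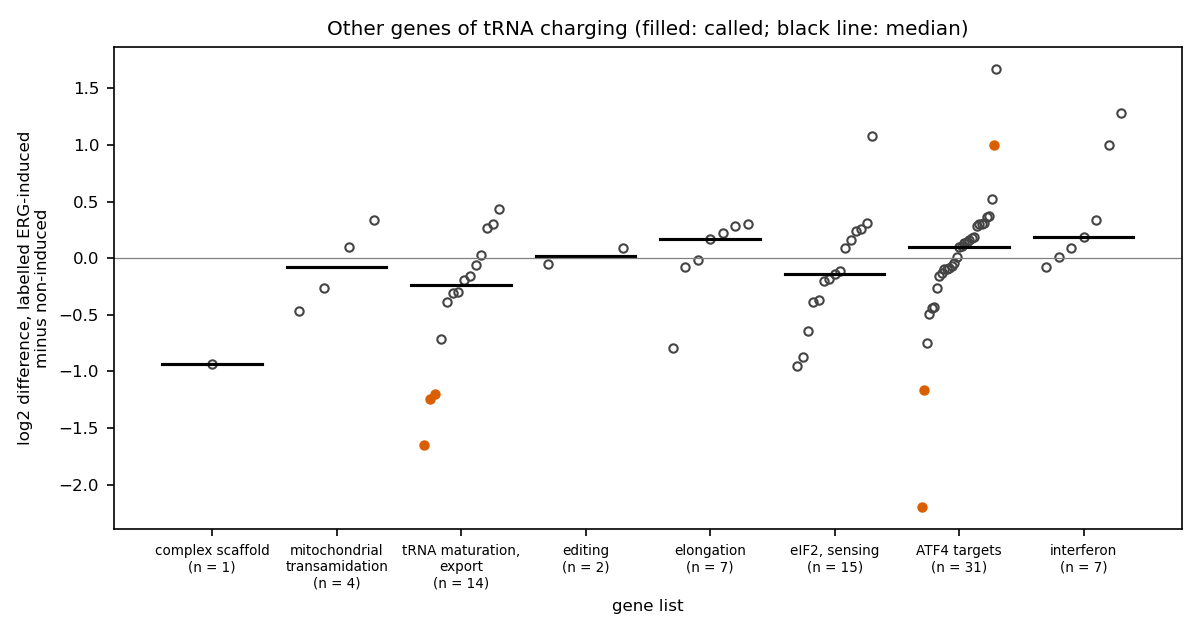
Log2 difference, labelled ERG-induced minus non-induced, of each measured gene (points) in 8 lists around tRNA charging, with the number measured under each name. Filled points are called genes and black lines list medians; 3 called points lie below 0 in tRNA maturation, and the ATF4 list holds called points on both sides.

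The marker lists were measured as differences alone. Of 8 measured erythroid markers 1 was called lower, the transferrin receptor TFRC at -1.67 (SE 0.32, adjusted p = 0.192), and the median was 0.05. Of 6 fibroblast markers PDGFRA was called higher at 1.43 and COL1A1 lower at -1.09, and of 4 lymphocyte markers CD3D was called lower at -1.23. Summed levels of these lists could not be formed from ratios, and their part in the synthetase values was not tested.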

How the data were processed

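Expression was measured in 3 K562 pTRE-ERG clones with and without doxycycline on 6 Affymetrix U133 Plus 2.0 arrays. The deposited values are linear ratios, which the authors made in GeneSpring by setting each probe set against its own 6-array median. That median equalled 1 (tolerance 1e-05) in 50737 probe sets and lay below 1 in 3938. The sets below 1, which include a set of RARS2 and a set of ERG, do not show exactly that scaling. The sources used here do not give the earlier background correction and scaling, and signal over background is unknown, so that the number of arrays limits the precision.

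Control probe sets (62) were left out, and 41091 probe sets had 1 symbol, 1801 several and 11721 none. Ratios were turned to log2 without a floor and averaged over the probe sets of a gene. Both groups entered a limma 3.58.1 fit under R 4.3.3 (lmFit and eBayes, two-sided, no pairing) over all genes, after the code was tested on simulated data. A call needs a fold of at least 2 and an unadjusted p under 0.05, the study's thresholds, and adjusted p-values are from limma with Benjamini-Hochberg adjustment. The p-values measure the spread between the arrays of a group, each from another clone. With 1 array per clone and condition, this spread holds differences of clone, culture and array together. Arrays of the same number share a clone, which pairs them, although deviations from the group means correlated by only 0.0306 to 0.0487 within a clone. The alternatives tried were the clone as a block, 2 scalings, other variance models, other choices of probe sets, other thresholds and each clone left out. Counts of groups without overlap under the alternatives were added after seeing the data.

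The synthetase family and the lists were chosen with earlier results of these data known, and the members within the family by symbol. Any synthetase could be named, with full statistics for called genes, the 4 highest and lowest of each compartment and EPRS1, GARS1, KARS1 and WARS1, and in each other list the up to 3 genes of smallest p. Motifs and sequences came from RefSeq promoters of GRCh38.p14.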

Additional observations from a re-analysis of the deposited data

How the results depend on the processing

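The comparison holds 3 arrays per group, no replicate within a clone, and values without brightness, so that dim probe sets could not be left out. The array scaling matters for the whole set: the median difference of all genes was -0.03 as deposited, 0.08 with arrays centred on their median and 0.11 after quantile normalization, and the lower share of all calls went from 67.0% to 57.2% and 52.1%. The cytosolic median then moved to 0.06 and 0.07 and the mitochondrial one to -0.07 and -0.05, with 17 and 16 of 32 below 0 in place of 19. Under either scaling 5 synthetases were higher without overlap, against 11.4% and 11.8% of all genes, and 7 lower, against 11.9% and 11.6%. EPRS1 remained the called synthetase under both scalings, without moderation, with the median over probe sets and without CL4. The same held without probe sets of a median below 1. It also held with a variance trend, which followed the mean log2 ratio, since the values hold no intensity.

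At an adjusted p under 0.05, limma called 0 genes lower, 0 probe sets higher and 0 lower. A fold of 1.5 gave 2 genes (EPRS1 and NARS1) and 6 probe sets lower. Without moderation 0 probe sets were called higher. The median over probe sets gave a mitochondrial median of -0.14 and turned the cytosolic one to 0.01. With _x_at and _s_at sets left out, 0 genes and 0 probe sets were called lower, the medians were 0.01 and -0.14 (cytosolic and mitochondrial), and 5 genes were lower without overlap, over 27 synthetases. With the replicate block for the clone, 1 gene and 3 probe sets were lower, 1 probe set was higher and the medians stayed at -0.05 and -0.17; the paired fit changed no call of a synthetase gene, and its lowest adjusted p of a synthetase was 0.356.

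With each clone left out in turn, 0 to 1 genes were called lower, 0 higher, 0 to 4 probe sets lower and 0 to 1 higher. The medians ran from -0.12 to 0.03 (cytosolic) and -0.18 to -0.15 (mitochondrial), and 10 to 12 genes were lower and 3 to 6 higher without overlap. With 2 arrays per group this held for 23.7% to 24.1% (lower) and 18.6% to 19.5% (higher) of all genes, so that these counts do not compare with those of 3 arrays. Without CL9, 1 probe set was called lower, and without CL46, 0. Signs turned in 18 gene values, none of them called. With arrays centred and after quantile normalization these were AARS2 (0.07 and 0.10), HARS1 (0.06 and 0.07) and, after the latter, CARS1 (0.02). With the median over probe sets they were CARS1 (0.12) and CARS2 (0.01), and without _x_at and _s_at sets CARS2 (0.13). With each clone left out in turn the values ran from -0.15 to 0.18 for AARS2, -0.52 to 0.03 for CARS2, -0.12 to 0.28 for FARSA, -0.06 to 0.22 for FARS2, -0.13 to 0.10 for GARS1, -0.11 to 0.03 for HARS1, -0.02 to 0.18 for LARS2, -0.57 to 0.39 for RARS2, -0.00 to 0.25 for VARS1 and -0.19 to 0.15 for WARS1. The cause of these changes was not tested, apart from the loss of genes without _x_at and _s_at sets. EPRS1, GARS1, IARS1, LARS1 and VARS1 then had no probe set of their own left.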
